A study of Mus musculus with 11 samples.

Results

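TEC transcripts are genes that the mouse annotation carries as provisional, regions with evidence of a polyadenylated transcript whose status as a gene still has to be established by experiment. The tables listed 3219 genes of this biotype among 53700 identifiers, and 1982 of them had at least 1 read. The 251 TEC transcripts described here were selected on their measured abundance, a raw count sum of at least 330 over the 11 animals, with Gm37899 left out. They are 251 of the 9795 genes of any biotype that reached this sum. Just inside that limit lay C130075A20Rik and Gm37788 with 331 reads each and Gm38187 with 330, and just outside lay Gm43490 and Gm45257 with 327 reads each and Gm45131 with 325. The sum is over raw reads, and the Abi3_WT group had more animals and on average more reads in genes (4213426 against 3457200 per library), so the limit favours genes that are higher in Abi3_WT. The summed level was therefore also taken over all 3218 TEC genes but Gm37899, with no minimum, as given with the sums below.

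The data were QuantSeq libraries, a 3′ mRNA sequencing method primed with oligo(dT), from the cerebral cortex of female mice aged 8 months, 1 library per animal. All animals carried the 5xFAD transgenes, which carry mutations of familial Alzheimer's disease and are driven in neurons by the Thy1 promoter. There were 6 animals with both Abi3 copies (Abi3_WT) and 5 in which both copies of Abi3 were deleted (Abi3_KO). The labels give the strain as C57BL/6. The study's methods name the purchased 5xFAD strain as B6SJL. They describe the deletion as a definitive null allele of the Abi3 locus, and the experimental mice as heterozygous for a natural Trem2 variant from the SJL background, in both groups. The comparison asked how loss of Abi3 alters the cortical transcriptome in the presence of amyloid.

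Oligo(dT) binds wherever a transcript holds a stretch of A, at the poly(A) tail and also at A-rich stretches inside an unspliced transcript. Most of the sequence of long neuronal genes is intron, and unspliced RNA of these genes is found in the nucleus. A read that falls in an intron where a TEC gene is annotated on the same strand is counted for that TEC gene, and a read in an intron with no such annotation is tallied as outside genes. Both are therefore set side by side here.

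The TEC transcripts were short, single-exon and mostly intronic. Of the 251, 250 had 1 annotated exon, and the median length was 2623 bases (330 to 30942). A same-strand gene spanned 227 of them, of which 219 lay in an intron without touching an exon of that host gene and 8 overlapped an exon. Of the others, 9 lay downstream within 10 kb of the end of a same-strand gene, 6 lay only opposite a gene on the other strand, 8 were intergenic and 1 partly overlapped a same-strand gene. The 227 transcripts shared 115 host genes (105 protein-coding, 10 lncRNA), and 29 hosts held at least 2, for 141 transcripts in all. Transcripts in 1 host are not independent of each other. The hosts were long: the median span was 228 kb, against 32.5 kb for the 9316 protein-coding genes with the same count sum. Kcnip4, an auxiliary subunit of A-type potassium channels, held 21, Adgrb3, an adhesion receptor at synapses, held 15, and Dlg2, a postsynaptic scaffold protein, held 15.

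The bases at the annotated 3′ ends are shown for 15 of the 16 transcripts that were past the threshold below, most abundant or most changed, to show which bases follow the annotated end. Each line gives the last 50 annotated bases in lower case and the next 30 genomic bases in capitals, 5′ to 3′ on the strand of the transcript, from GRCm39. For the 6 past the threshold the windows are 9330162G02Rik chr7:58873565-58873644 (−), B230206I08Rik chr7:92060533-92060612 (+), Gm38260 chr1:25711296-25711375 (−), Gm37407 chr1:128092217-128092296 (+), Gm45179 chr7:90702494-90702573 (+) and Gm44229 chr6:80424770-80424849 (+). For the others they are Gm44560 chr7:58935770-58935849 (−), Gm44562 chr7:58908573-58908652 (−), 8030445P17Rik chr1:25761089-25761168 (−), Gm45762 chr8:96502510-96502589 (−), Gm47592 chr10:90650202-90650281 (+), Gm19817 chr3:55240344-55240423 (+), Gm37941 chr9:86666570-86666649 (−), Gm44742 chr7:58852109-58852188 (−) and Gm37396 chr1:123396149-123396228 (−).
9330162G02Rik: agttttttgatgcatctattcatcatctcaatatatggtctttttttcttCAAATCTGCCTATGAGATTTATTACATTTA
B230206I08Rik: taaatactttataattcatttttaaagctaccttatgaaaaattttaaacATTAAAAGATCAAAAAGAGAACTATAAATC
Gm38260: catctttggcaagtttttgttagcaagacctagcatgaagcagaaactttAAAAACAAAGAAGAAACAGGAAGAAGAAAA
Gm37407: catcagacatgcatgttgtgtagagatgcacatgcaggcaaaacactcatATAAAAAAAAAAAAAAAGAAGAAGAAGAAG
Gm45179: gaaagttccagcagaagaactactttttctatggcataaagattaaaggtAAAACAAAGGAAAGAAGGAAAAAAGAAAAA
Gm44229: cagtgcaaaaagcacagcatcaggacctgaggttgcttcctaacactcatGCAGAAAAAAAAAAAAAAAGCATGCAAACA
Gm44560: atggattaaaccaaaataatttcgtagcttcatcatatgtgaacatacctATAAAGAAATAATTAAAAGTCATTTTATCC
Gm44562: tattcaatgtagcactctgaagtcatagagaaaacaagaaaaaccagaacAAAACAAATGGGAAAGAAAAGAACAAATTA
8030445P17Rik: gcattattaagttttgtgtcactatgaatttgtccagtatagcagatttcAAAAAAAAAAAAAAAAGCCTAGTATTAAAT
Gm45762: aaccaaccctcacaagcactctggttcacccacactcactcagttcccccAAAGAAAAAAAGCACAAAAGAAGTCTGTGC
Gm47592: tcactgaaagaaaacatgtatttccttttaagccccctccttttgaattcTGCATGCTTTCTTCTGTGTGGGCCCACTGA
Gm19817: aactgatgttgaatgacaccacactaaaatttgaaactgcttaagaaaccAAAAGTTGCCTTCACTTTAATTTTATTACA
Gm37941: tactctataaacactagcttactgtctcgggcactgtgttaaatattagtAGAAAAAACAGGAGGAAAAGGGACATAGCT
Gm44742: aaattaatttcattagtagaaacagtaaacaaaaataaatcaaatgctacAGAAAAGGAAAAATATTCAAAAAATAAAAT
Gm37396: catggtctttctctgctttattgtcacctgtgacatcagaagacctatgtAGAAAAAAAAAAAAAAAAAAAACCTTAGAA

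The capitals are genomic bases past the annotated end, not a poly(A) tail. In 11 of these 15 windows 16 to 24 of the 30 are A, while 15 are A for Gm44560, 10 for 9330162G02Rik and for Gm19817, and 3 for Gm47592. The longest run of A in the next 30 bases was 20 for Gm37396, 16 for 8030445P17Rik and 15 for both Gm44229 and Gm37407, whereas it was 3 for 9330162G02Rik and 1 for Gm47592. Across all 251 transcripts, 64.5% had AAAAAA in the 30 bases after the end, against 23.9% of the 2968 other TEC genes and 5.56% of the 9316 protein-coding ends. A poly(A) signal hexamer, AATAAA or ATTAAA on the transcript strand in the last 50 bases, was present in 23.9% of the 251, in 29.5% of the other TEC genes and in 74.0% of the protein-coding ends. The median share of A in those 30 bases was 63.3%, 36.7% and 20% in the same order. Inside the annotated spans, a run of at least 10 A occurred in 41.0% of the 251 and 16.8% of the other TEC genes, and a run of at least 10 T in 29.5% and 23.7%. These shares describe the annotation and carry no test. The 251 were longer than the other TEC genes (median 1928 bases for those), so the shares for whole spans are not at matched length.

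**Figure D1:**
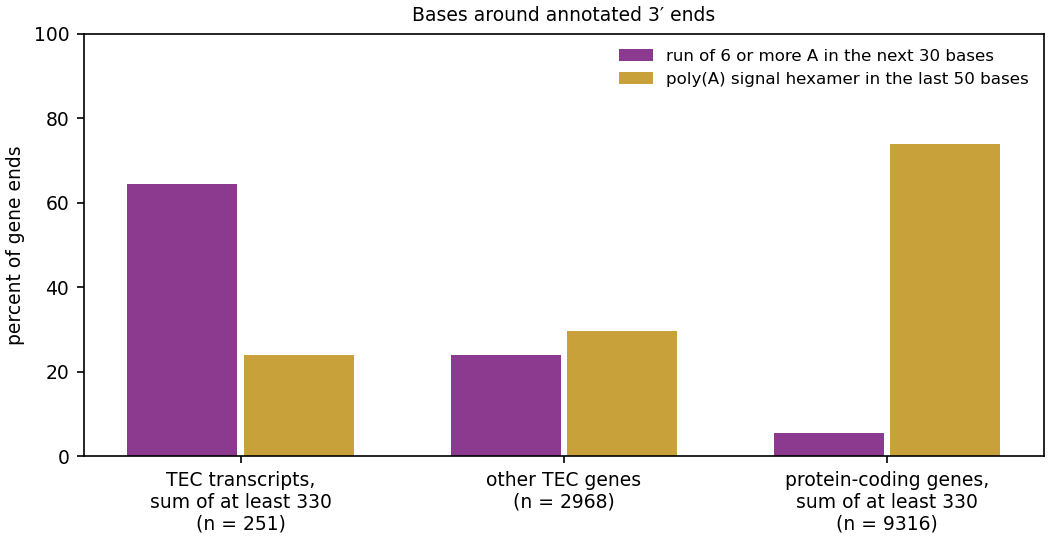
Percent of annotated 3′ ends with AAAAAA in the next 30 genomic bases (purple) and with AATAAA or ATTAAA in the last 50 bases (yellow), for the 251 TEC transcripts, the 2968 other TEC genes and 9316 protein-coding genes. The TEC transcripts have the highest share of A runs (64.5%) and the lowest share of signal hexamers (23.9%), and protein-coding ends the reverse.

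Reads outside genes were fewer in Abi3_KO cortices, relative to reads in genes. For every 100 reads in genes, Abi3_WT libraries held 65.9 ± 3.67 reads (SD, n = 6) that aligned to 1 place but to no annotated gene, while Abi3_KO libraries held 54.0 ± 4.99 (SD, n = 5), a ratio of 0.820 (two-sided exact permutation test, p = 0.00649). This measure was named together with the TEC transcripts, which were chosen with earlier results of these data known. The Abi3_WT animals ran from 59.3 to 68.8 with a median of 66.9, and the Abi3_KO animals had 52.8, 49.8, 53.7, 62.5 and 51.1. The groups overlapped in 1 animal, Abi3_KO replicate 4, whose value of 62.5 lay above the lowest Abi3_WT animal. Depth did not separate the groups beyond its spread: reads in genes ranged from 3202310 to 5501958 per library (exact permutation test, two-sided, p = 0.152). The mitochondrial share of reads in genes was 22.1% in both groups (exact permutation test, p = 0.946). The number of genes with a count did differ, at 18445 ± 345 (SD, n = 6) in Abi3_WT against 17785 ± 243 (SD, n = 5) in Abi3_KO (exact permutation test, two-sided, p = 0.013), and its part in the results was not tested.

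The TEC transcripts split the animals in the same way. Summed over the 251 and given per 10000 reads in genes, they took 53.5 ± 2.55 reads (SD, n = 6) in Abi3_WT libraries, and in Abi3_KO libraries 41.1 ± 5.70 (SD, n = 5), a ratio of 0.768. Over the 3218 TEC genes with no minimum the ratio was 0.768 too. The Abi3_WT animals ran from 50.2 to 56.3 with a median of 53.8, and the Abi3_KO animals had 40.2, 36.2, 39.6, 50.9 and 38.6. Again only replicate 4 of Abi3_KO reached into the Abi3_WT range, and without it the ratio was 0.722. Set against reads outside genes instead, the sums were 81.3 ± 2.20 and 75.9 ± 3.40 per 10000, a ratio of 0.933. They made up 205753 reads in all, 0.483% of reads in genes, and 11.7% of these belonged to 9330162G02Rik. No p is given for these sums, since the members were chosen with earlier results of these data known.

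**Figure D2:**
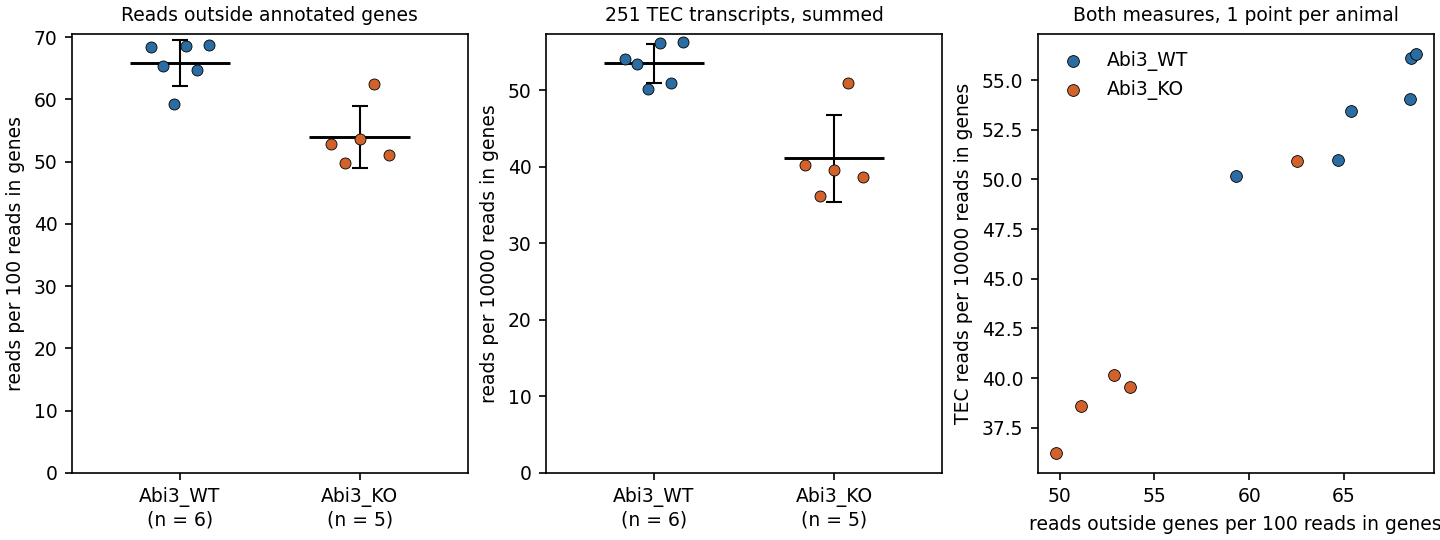
Reads outside annotated genes per 100 reads in genes (left), summed reads of the 251 TEC transcripts per 10000 reads in genes (middle), and both measures against each other (right), 1 point per animal with Abi3_WT in blue and Abi3_KO in orange. Black lines are means with SD. In both measures 4 of 5 Abi3_KO animals lie below every Abi3_WT animal, and replicate 4 (62.5 and 50.9) lies within the Abi3_WT range.

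Of the 251 TEC transcripts, all of which passed the filter on low counts, 230 (91.6%) had a lower estimate in Abi3_KO, beside 50.5% of the 17626 genes tested. The median log2 fold change was −0.37 over the TEC transcripts and −0.003 over all genes. Past an adjusted p of 0.05 (DESeq2, adjusted over all genes) were 6 transcripts, all of them lower, where 0.199% of all genes were called lower, 0.34% higher and 0.539% in either direction. At an unadjusted p under 0.05 there were 68, all lower (27.1% of the transcripts, against 8.58% of all genes). DESeq2 gave no adjusted p to 184 of the 251, because their mean count lay under the limit of 70.4 normalized counts that it set. Among the 67 transcripts with an adjusted p the 6 calls stand beside 0.54% of the 6487 genes with one that were called lower. The mean normalized counts of the transcripts ran from 27.6 to 2112 with a median of 47.3.

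**Figure D3:**
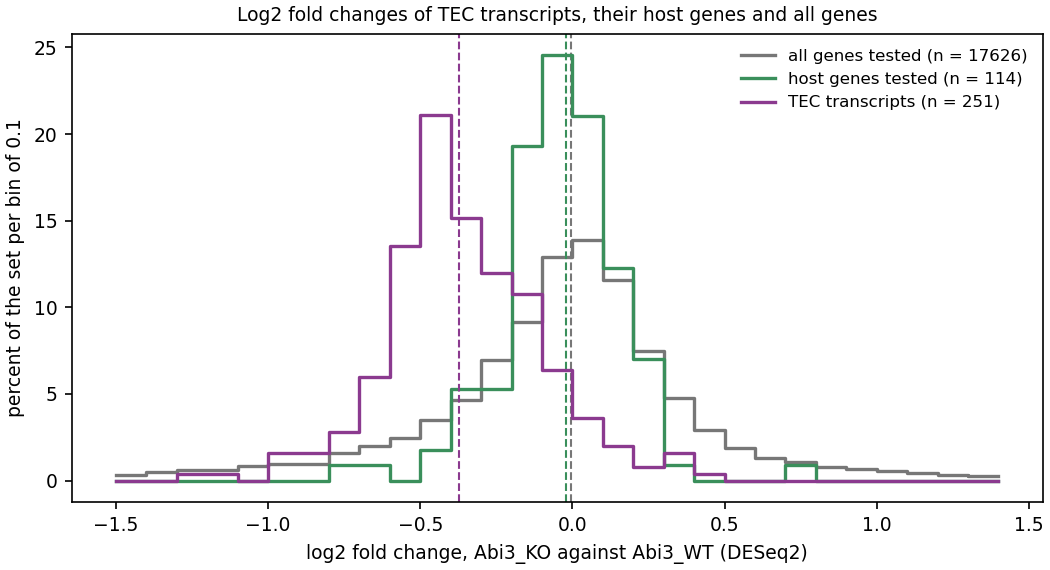
Distribution of log2 fold changes (Abi3_KO against Abi3_WT, DESeq2, bins of 0.1) for the 251 TEC transcripts in purple, the 114 host genes tested in green and all 17626 genes in grey, as percent of each set, with dashed lines at the medians (−0.37, −0.02 and −0.003). Values beyond ±1.5 are not drawn.

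The 6 transcripts past the threshold were 5 intronic ones, in Dlg2, Adgrb3, Lrrtm4 and R3hdm1, and 9330162G02Rik, which lies opposite Ube3a. B230206I08Rik (ENSMUSG00000109574, chr7:92057392-92060582) lies in an intron of Dlg2, 1932 kb into its span of 1973 kb. Its normalized counts were 273 to 344 (median 298) in Abi3_WT and 213, 200, 155, 233 and 199 in Abi3_KO. Every Abi3_KO animal lay below every Abi3_WT animal, and the log2 fold change was −0.60 ± 0.12 (SE; adjusted p = 0.000522). Gm45179, also in an intron of Dlg2 but 572 kb from its start, had 72.2 to 119 (median 101.4) in Abi3_WT and 52.4, 32.3, 58.5, 82.4 and 66.0 in Abi3_KO. Here the groups overlapped through Abi3_KO replicate 4, and the change was −0.76 ± 0.22 (adjusted p = 0.0499).

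Gm38260 (ENSMUSG00000102250, chr1:25711326-25715320), in an intron of Adgrb3, had 159 to 220 normalized counts (median 178) in Abi3_WT and 100.7, 134, 104, 102 and 130 in Abi3_KO. The groups did not overlap, and the log2 fold change was −0.69 ± 0.14 (SE; adjusted p = 0.000959). Gm44229 (chr6:80422333-80424819), in an intron of Lrrtm4, which encodes a postsynaptic organizer of excitatory synapses, had 84.5 to 107 (median 96.2) in Abi3_WT and 55.6, 63.6, 35.8, 59.9 and 42.1 in Abi3_KO. It did not overlap between groups either and had the largest change of the 6, −0.89 ± 0.19 (adjusted p = 0.0023). Gm37407 (chr1:128090951-128092266), in an intron of R3hdm1, had 131 to 158 (median 145) in Abi3_WT and 94.4, 75.8, 102, 104 and 78.5 in Abi3_KO. Its groups were apart as well, with a log2 fold change of −0.67 ± 0.15 (adjusted p = 0.00332).

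**Figure D4:**
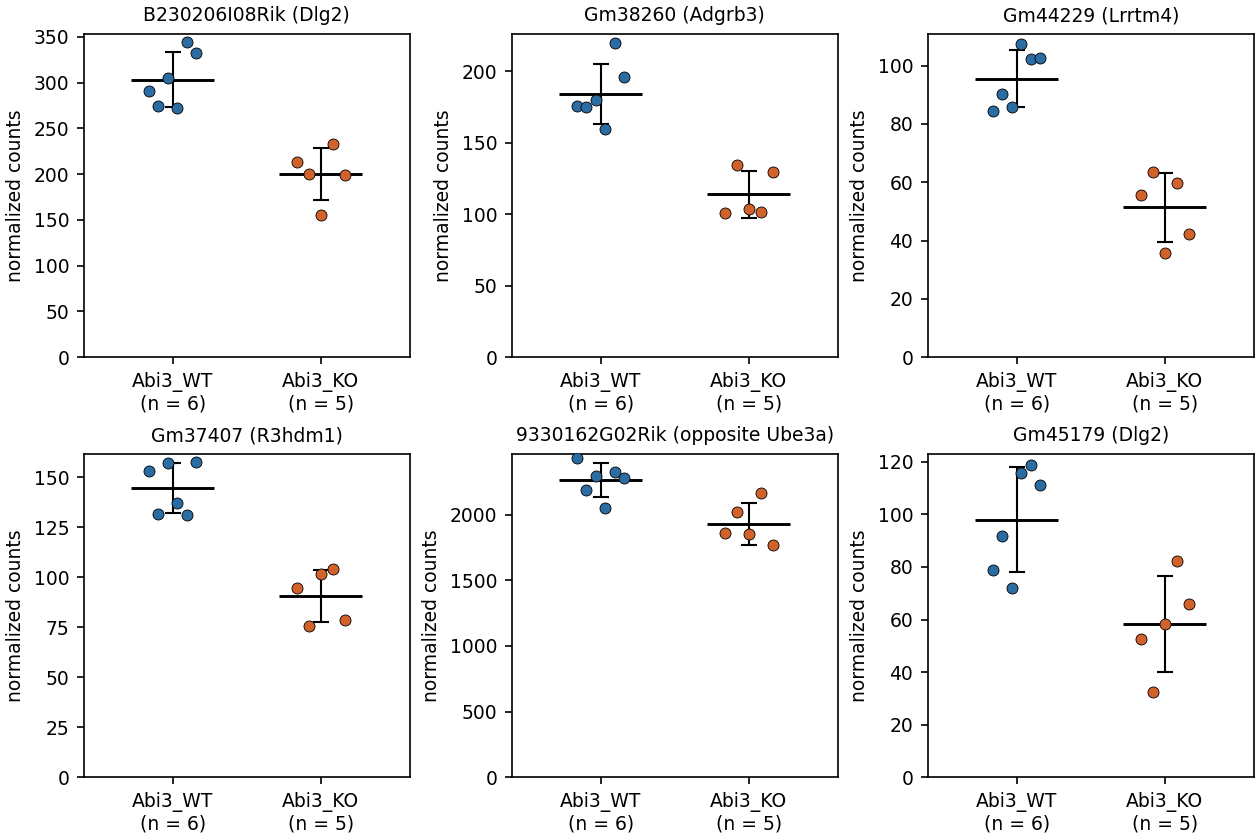
Normalized counts per animal (y axis, from 0) of the 6 TEC transcripts past an adjusted p of 0.05, with the host gene in the title, Abi3_WT in blue (n = 6) and Abi3_KO in orange (n = 5), and black lines for mean and SD. In B230206I08Rik, Gm38260, Gm44229 and Gm37407 every Abi3_KO animal lies below every Abi3_WT animal, while 9330162G02Rik and Gm45179 overlap.

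The normalized counts of 8 of the 251 transcripts (3.19%) did not overlap between the genotypes, all of them lower in Abi3_KO, where 0.499% of all genes were lower without overlap and 1.04% did not overlap in either direction. Besides the 4 above they were 8030445P17Rik, Gm37211 and 2900002M20Rik, all in introns of Adgrb3, and Gm47592 in an intron of Anks1b. 8030445P17Rik had 196 to 261 normalized counts in Abi3_WT and 131 to 191 in Abi3_KO, a log2 fold change of −0.44 ± 0.13 that missed the threshold (adjusted p = 0.057). The largest estimates in either direction were those of Gm45762 in an intron of Cnot1 (−1.21 ± 0.38), Gm47592 (−1.17 ± 0.30), Gm19817 in an intron of Dclk1 (−0.96 ± 0.23), Gm37941 in an intron of Snap91 (−0.95 ± 0.26), the intergenic Gm44742 (−0.93 ± 0.29) and Gm37396 in an intron of Dpp10 (−0.90 ± 0.32). None of these 6 received an adjusted p, and with independent filtering switched off Gm19817 (adjusted p = 0.0159) and Gm47592 (adjusted p = 0.0297) fell below 0.05. The same setting took the call from 9330162G02Rik (adjusted p = 0.0964) and Gm45179 (adjusted p = 0.112).

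One group of TEC transcripts lies in the imprinted Snhg14 and Ube3a region of chromosome 7. Snhg14 is a long noncoding RNA made from the paternal allele, whose distal part runs antisense to Ube3a, a ubiquitin ligase gene that neurons express from the maternal allele. 9330162G02Rik (ENSMUSG00000109536, chr7:58873595-58904536) starts 53.1 kb past the annotated end of Snhg14, on the same strand, and extends past the start of Ube3a. It was the most abundant TEC transcript, with 2051 to 2431 normalized counts (median 2288) in Abi3_WT and 1858, 2018, 1851, 2166 and 1766 in Abi3_KO. The groups overlapped, and the log2 fold change was −0.23 ± 0.06 (SE; adjusted p = 0.0428). Between it and the Snhg14 end lay Gm44560 (−0.21 ± 0.10), Gm44562 (−0.30 ± 0.14) and Gm44559 (−0.38 ± 0.15), and beyond it, 104 kb past that end, lay Gm44742. A230103L15Rik, in an intron of Snhg14, had a log2 fold change of −0.35 ± 0.12, and Snhg14 itself −0.18 ± 0.07. None of these but 9330162G02Rik passed the threshold, although all of those named had lower estimates. Gm44831, a further TEC transcript inside the span of Snhg14, is not described here. Snrpn, a gene of this region looked at as a check, had a higher estimate of 0.20 ± 0.08 that did not pass (adjusted p = 0.255). Ube3a, read from the other strand, had 873 to 945 normalized counts in Abi3_WT and 955 to 1058 in Abi3_KO, and its log2 fold change of 0.13 ± 0.06 did not pass (adjusted p = 0.369).

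By position, the intronic transcripts had a median log2 fold change of −0.40, with 207 of 219 lower and 5 past the threshold. The 6 that lay only opposite a gene were all lower, with a median of −0.31. The 8 that overlapped an exon of the host had a median of −0.19 (7 lower), and the 8 intergenic ones −0.28 (6 lower). The 9 transcripts downstream of a gene had a median of 0.07, with 4 of 9 lower, from −0.61 for E330034L11Rik beyond Ensa to 0.48 for Gm16485 beyond Pgr. The difference between positions was not tested, and all classes but the intronic one are small. With the span of each host divided in 4 equal parts from its start, the medians were −0.40, −0.42, −0.35 and −0.44 in that order (68, 66, 53 and 32 transcripts). The 162 transcripts with AAAAAA after the end had a median of −0.39 and the 89 without it −0.32.

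Of 114 hosts tested, 66 were lower and 48 higher, with a median log2 fold change of −0.02, and 2 passed the threshold, both lower. Called lower were 0.199% of all genes and 0.54% of the 6487 genes with an adjusted p, which 101 of the hosts had. At an unadjusted p under 0.05 there were 18 hosts (15.8%, against 8.58% of all genes). R3hdm1, which encodes a protein with an R3H domain, fell from a range of 1780 to 2297 (median 1958) normalized counts in Abi3_WT to 1383 to 1848 (median 1508) in Abi3_KO, a log2 fold change of −0.34 ± 0.08 (SE; adjusted p = 0.00758). The groups overlapped. Cttnbp2, a regulator of cortactin at dendritic spines, had 628 to 741 and 511 to 629 and a log2 fold change of −0.29 ± 0.08 (adjusted p = 0.028). Its single TEC transcript, Gm43843, had a log2 fold change of −0.16 and did not pass, so of these hosts only R3hdm1 held a transcript that was also past the threshold. With 1 animal left out, R3hdm1 passed in 10 of 11 fits and Cttnbp2 in 6, and neither passed with edgeR (adjusted p = 0.0699 and 0.249). Scaled to reads in genes and outside genes, 3 hosts passed, of which R3hdm1 was lower and Dpp10 and Gpm6a, the latter named after its values were seen, were higher.

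The difference between a transcript and its host was tested directly. The log2 ratio of the nested gene's count to that of its host was fitted with limma over 283 same-strand nested pairs of any biotype, 219 of them TEC. The median difference in this ratio, Abi3_KO against Abi3_WT, was −0.33 over the TEC pairs (190 of 219 lower) and −0.25 over the 64 other pairs (49 of 64 lower). No pair of either kind passed an adjusted p of 0.05 (0.0% of 283). The smallest adjusted p was 0.0641, and 46 TEC pairs and 15 other pairs had an unadjusted p under 0.05 (21.6% of all pairs). With 1 animal left out the count of TEC pairs past the threshold was 0 in 9 of 11 fits. It was 24 without Abi3_KO replicate 4 and 4 without Abi3_KO replicate 3. How many of all 283 pairs passed in those fits is not given here.

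The 10 hosts with at least 5 transcripts held 92, of which 91 were lower, while none of those hosts passed the threshold with DESeq2, edgeR or limma (4 had an unadjusted DESeq2 p under 0.05). In Kcnip4 host and transcripts had like estimates: its 21 had a median log2 fold change of −0.37 (20 lower), and Kcnip4 itself −0.44 ± 0.19 (adjusted p = 0.295). The summed normalized counts of its 21 transcripts were 1946 to 2766 in Abi3_WT and 1283 to 2647 in Abi3_KO and overlapped. In Dlg2 the 15 transcripts were all lower, with a median of −0.45, and Dlg2 itself had −0.08 ± 0.09 (adjusted p = 0.783). Their sum was 1427 to 1606 (median 1523) in Abi3_WT and 974 to 1420 (median 1011) in Abi3_KO, without overlap. In Adgrb3 the 15 transcripts were also all lower, with a median of −0.31 and Adgrb3 itself at −0.15 ± 0.08 (adjusted p = 0.424), and their sums of 1231 to 1426 and 911 to 1106 did not overlap either. Dlg2 and Adgrb3 were the 2 of these 10 hosts whose sums did not overlap. No such share was taken over sums of other genes, and of single genes 1.04% did not overlap in either direction. Ank2, which encodes an ankyrin scaffold, had −0.02 ± 0.05 itself and a median of −0.52 over its 7, with overlapping sums of 471 to 565 and 290 to 472. Dpp10, another auxiliary subunit of A-type potassium channels, had 0.23 ± 0.09 itself and a median of −0.52 over its 5, with overlapping sums of 290 to 444 and 220 to 402. These are shown because they had the lowest medians of the 10.

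**Figure D5:**
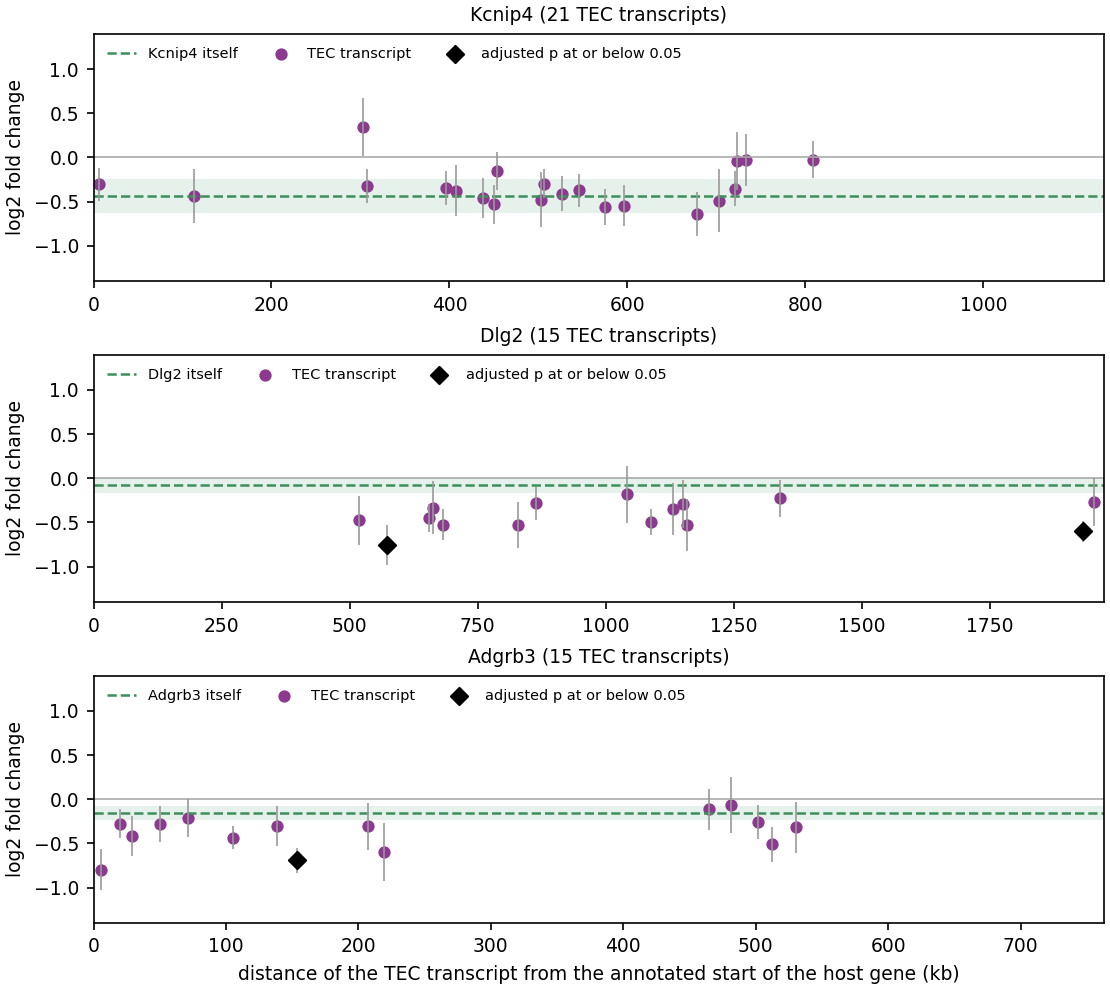
Log2 fold change (Abi3_KO against Abi3_WT, with SE bars) of each TEC transcript against its distance in kb from the annotated start of the host gene, for Kcnip4, Dlg2 and Adgrb3, with the host's own estimate as a green dashed line and its SE as a band. Black diamonds mark the 3 transcripts past an adjusted p of 0.05. All transcripts in Dlg2 and Adgrb3 lie below 0, and 1 of 21 in Kcnip4 lies above.

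Other RNA classes were described in the same way. Of 16 processed pseudogenes with a count sum of at least 330, 12 were lower, with a median of −0.41, 37.5% at an unadjusted p under 0.05 and 1 past the threshold, lower; this class holds copies of other genes, whose reads the counting could split. Of 160 lncRNAs with a count sum of at least 330, 118 were lower (median −0.20, 5 past the threshold, all lower), and of 9316 protein-coding genes 4231 were lower (median 0.02). Of the lncRNAs, 25.6% had an unadjusted p under 0.05 and 3.125% did not overlap between the genotypes. These shares were close to the 27.1% and 3.19% of the TEC transcripts. The 448 protein-coding genes that span at least 300 kb had a median of −0.02. The 1103 TEC genes tested below the count sum had a median of −0.36, with 780 lower, and DESeq2 gave none of them an adjusted p (9.16% had an unadjusted p under 0.05). Among 12 long RNAs known to stay in the nucleus, 3 passed and all 3 were lower. Beside them, 0.199% of all genes and 0.54% of the 6487 genes with an adjusted p were called lower. The 3 were Meg3 (−0.39 ± 0.09), Snhg11 (−0.33 ± 0.07) and Rian (−0.30 ± 0.09), and Malat1 had −0.21 ± 0.08 without passing (adjusted p = 0.209). Meg3, Rian and Mirg of this list come from 1 imprinted locus and are not independent. Rian lay at the edge (DESeq2 adjusted p = 0.0488, and 0.109 with independent filtering off). With reads outside genes as a covariate the 3 had 0.04, −0.10 and −0.03 in that order. The summed level of the list overlapped between the genotypes. The median over the 12 was −0.23, with 9 lower and 3 higher, namely Neat1 (0.07 ± 0.15), Airn (0.51 ± 0.83) and Tsix (0.97 ± 0.85), none of which passed.

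The size of the difference moved with the reads outside genes. With that measure as a covariate in the DESeq2 fit, no TEC transcript passed the threshold, the median over the 251 was −0.05 with 136 lower, 13 had an unadjusted p under 0.05, and 3 genes passed in all. The covariate itself differs between the genotypes, so its share and that of genotype cannot be told apart in these 11 animals. Leaving out 1 animal at a time kept B230206I08Rik past the threshold in 10 of 11 fits, Gm38260 and Gm37407 in 8, Gm44229 in 5, 9330162G02Rik in 3 and Gm45179 in 1. The number of TEC transcripts past the threshold was 18 without Abi3_KO replicate 4, 3 without Abi3_KO replicate 1, and 1 without Abi3_KO replicate 5, Abi3_WT replicate 1 or Abi3_WT replicate 2. Of all genes, in either direction, 120 passed without Abi3_KO replicate 4, and 46 to 120 over the 11 fits. edgeR's quasi-likelihood test called 5, all lower, of which 4 were among the 6, and limma with voom called 2. Of all 17626 genes tested, edgeR called 37 and limma 21, in either direction.

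Tissue and library checks were as follows. Abi3 had 10 to 38 raw reads in Abi3_WT libraries and 0 to 2 in Abi3_KO libraries. Markers of excitatory and inhibitory neurons, astrocytes, oligodendrocytes and their precursors, microglia, endothelium, choroid plexus, striatum and blood had none of their 31 tested genes past the threshold with DESeq2, edgeR or limma and none at an unadjusted DESeq2 p under 0.05, and the summed level of each list overlapped between the genotypes. Choroid plexus markers varied widely within both groups (42.7 to 3486 normalized counts in Abi3_WT and 85.9 to 2296 in Abi3_KO). Of the blood markers, Hbb-bs, a β-globin gene, had 23.0 to 158 (median 104) normalized counts in Abi3_WT and 5.24, 31.3, 7.16, 5.65 and 213.9 in Abi3_KO. Hba-a1, an α-globin gene, had 0 to 109 (median 68.8) in Abi3_WT and 2.26 to 91.0 (median 5.05) in Abi3_KO. Most Abi3_KO animals were thus low in globin and replicate 5 was high. Abi3_WT replicate 3 was low as well, with 23.0 for Hbb-bs and 0 for Hba-a1. Neither gene passed (log2 fold changes of −0.995 ± 0.96 and −1.58 ± 1.17). The part of these tissues in the results was not tested. In bulk tissue, fewer cells of a type and less RNA per cell cannot be told apart. The labels name no batch of dissection, RNA extraction or sequencing, and no measure of RNA integrity or of nuclear content was given.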

How the data were processed

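QuantSeq 3′ libraries from 11 cortices (6 Abi3_WT, 5 Abi3_KO) were used. The authors trimmed the single-end reads, aligned them with STAR 2.7.3a to GRCm39 and counted reads per Ensembl gene on the matching strand with HTSeq 0.9.1. The deposited values are raw counts, with a tally of reads outside genes. No collapse of PCR copies is stated, so a count is of reads. Names, biotypes and positions came from a later GENCODE annotation of the same build, which matched 52610 of 53700 identifiers.

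Counts were compared with DESeq2 1.42.0 (R 4.3.3), genotype as the only term, over genes with a total of at least 10 and reported at a mean normalized count of at least 1.5, Benjamini-Hochberg adjusted, independent filtering aimed at 0.05. Ratios to hosts used limma 3.58.1 with a pseudocount of 0.5. A host was the same-strand gene whose span held the whole transcript, protein-coding first. A target of 0.1 for independent filtering was tried after seeing the data. On simulated counts of 17121 genes for this comparison, changed genes (log2 change of 1) were recovered by DESeq2 in 97% at means over 250 and 83% at means of 30 to 250, and 10.4% of its calls were false. The members and lists were chosen with earlier results of these data known. Transcripts were named if past the threshold, among the 6 most abundant, or among the 6 with the largest change, with their hosts; Gm37211, 2900002M20Rik, Gm44559, E330034L11Rik, Gm16485 and Gm43843 and the hosts described by number of transcripts were added after their values were seen. Other alternatives were edgeR 4.0.16, limma with voom, TMM factors, other filters, the replicate block, reads outside genes as a covariate and leaving out each animal. A count of 3 equals 0.545 to 0.937 CPM at these depths and was not used as a filter. The window of 1 named transcript is not reported here. P-values judge the difference between the genotypes against the spread between these animals.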

Additional observations from a re-analysis of the deposited data

Results flagged for a closer look

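In 5 of 64 groups examined, 1 animal stood apart from the others by more than Dixon's 95% limit, where chance gives about 3.2. Abi3_KO replicate 4 had 50.9 reads of TEC transcripts per 10000 reads in genes, with the next Abi3_KO animal at 40.2. The same animal was high for Gm19817 in Dclk1 (67.8 normalized counts, the next 39.4) and for Gm37396 in Dpp10 (30.5, the next 19.2). Abi3_WT replicate 6 was high for the host gene Lrrtm4 (135, the next 94.7). Abi3_KO replicate 2 was the only Abi3_KO library with any Abi3 reads (2.02 normalized counts, the next 0).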

How the results depend on the processing

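The number of genes past the threshold was 37 with edgeR, 21 with limma and voom, 182 when scaled to reads in genes and outside genes, 58 with independent filtering off, 30 with the replicate block and 3 with reads outside genes as a covariate, against 95, and 46 to 120 with 1 animal left out. The number of TEC transcripts past it was 2 with limma, 3 with that scaling, 0 with the replicate block (49 at an unadjusted p under 0.05) and 0 with the covariate, against 6, and 1 to 18 with 1 animal left out; the other alternatives gave 5 or 6, and with independent filtering off 4 of the 6 were shared. Host genes past it were 0 with edgeR, 1 with limma, 1 with filtering off, 1 with the replicate block, 0 with the covariate and 3 (2 higher, 1 lower, 1 of them shared) when scaled to reads in genes and outside genes, against 2, and 0 to 3 with 1 animal left out. The median log2 fold change of the TEC transcripts was −0.049 with the covariate and lay between −0.46 and −0.33 with 1 animal left out. Scaling to reads in genes and outside genes turned the calls over all genes to 162 higher and 20 lower from 60 and 35. The summed share kept its direction under every alternative run, from 0.722 to 0.791 with 1 animal left out, 0.825 per reads in genes and outside genes, and without overlap between genotypes at a count sum of at least 1100. The difference in reads outside genes was −14.0 to −10.8 per 100 with 1 animal left out. The TEC to host test called 7 of 29 TEC pairs when both genes had a count sum of at least 1100, and 0 to 24 of 219 with 1 animal left out. How many of all nested pairs passed in the same fits is not given here, so these counts have no background share. The cause of the changes between settings was not tested.

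Whether the replicate numbers pair the animals was not tested. Same-numbered animals correlated at −0.00485 to 0.0656 in their deviations (mean 0.0184, against −0.00368 for other pairs of animals). Of the Abi3_KO animals, 2 of 5 were closest to their own number. With the replicate block, the difference in reads outside genes over 5 pairs was −11.3 per 100 (exact sign-flip permutation test, p = 0.0625, the smallest it can give). Single named transcripts and hosts kept their direction wherever they were called: over their alternatives 486 results stayed on the same side of the threshold, 71 lost the call and 10 gained it. Most of these genes were not called in the main fit, and staying uncalled counts among the 486. Only the 6 transcripts and 2 hosts called there could lose a call, so the 71 all fell on them. Depth limits the transcripts with few reads: 184 of 251 had no adjusted p, and changes smaller than 1 on the log2 scale were not simulated.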
